A study of Mus musculus with 10 samples.

Results

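Axin2, Tcf7, Tcf7l1, Tcf7l2, Sp5, Ctnnb1 and Nkd1 are genes at the transcriptional end of the Wnt pathway, and their new transcription was followed for 6 hours after SOX2 was degraded in mouse embryonic stem cells. Members were chosen by gene symbol from a list of 8, with the condition that a gene had more than 10 fragments in at least 2 of the 10 libraries. Of the 8 symbols, 7 met the condition, out of 28459 transcribed units (TUs) that passed the same count condition, 14997 of them with a gene symbol. Lef1 was carried by no TU of the table used and is not analysed here. A TU is a stretch of continuous nascent transcription on 1 strand, and for a gene it spans exons and introns together. A TU can also run past the annotated ends of its gene.

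All libraries came from E14 mouse embryonic stem cells (the methods name IB10 for SOX2) in which SOX2 carries an FKBP tag on both alleles, so that the small molecule dTAG-13 directs the tagged protein to degradation. NT cells (not treated) received DMSO, and the other groups received 500 nM dTAG-13 and were collected 0.5, 1, 2 or 6 hours post depletion (hpd), with 2 libraries a group. Nascent RNA was measured by TT_chem-seq, in which RNA made during a 10 min pulse of 2 mM 4-thiouridine is fragmented, captured and sequenced. Every group, NT included, grew with LIF, 1 uM of the MEK inhibitor PD0325901 and 3 uM of CHIR99021, an inhibitor of GSK3. The comparison with NT therefore asks what SOX2 loss did to these genes while GSK3 was inhibited throughout. Nothing in the labels says that replicates were separate cultures, so p-values measure only the spread between these libraries, which may be technical. No untagged cells given dTAG-13 were among the libraries.

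In the canonical Wnt pathway, GSK3 and its partners in the destruction complex mark beta-catenin for degradation. A Wnt signal, or inhibition of GSK3, lets beta-catenin accumulate and bind the TCF/LEF proteins on DNA, which then activate target genes. In embryonic stem cells TCF7L1 acts mainly as a repressor, and beta-catenin relieves that repression. The members fall into the TCF factors (Tcf7, Tcf7l1 and Tcf7l2), beta-catenin itself (Ctnnb1), the feedback inhibitors (Axin2, a scaffold of the destruction complex, and Nkd1, which binds Dishevelled) and Sp5, a zinc finger repressor that is a direct target of beta-catenin.

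Promoter sequences are shown for the 3 members called at 6 hpd (Tcf7l1, Axin2 and Tcf7l2) and for Sp5, the one member whose window held a TCF/LEF type match. Each is the 250 bases before a RefSeq start, the closest to the start of the TU among those the promoter table lists, printed 5′ to 3′ on the strand of the gene, from the GRCm38.p6 assembly (mm10). The Tcf7l1 bases are chr6:72789046-72789295 on the minus strand, and the other 3, on the plus strand, are chr11:108920099-108920348 for Axin2, chr19:55741560-55741809 for Tcf7l2 and chr2:70474673-70474922 for Sp5. Capitals mark matches on either strand to CTTTGAT or CTTTGAA (TCF/LEF type) and to CATTGTT or CTTTGTT (SOX type).
Tcf7l1: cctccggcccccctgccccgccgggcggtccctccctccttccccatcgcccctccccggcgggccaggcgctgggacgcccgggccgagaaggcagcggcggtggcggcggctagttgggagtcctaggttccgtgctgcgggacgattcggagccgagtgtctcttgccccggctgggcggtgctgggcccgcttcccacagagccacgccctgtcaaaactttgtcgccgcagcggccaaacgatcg
Axin2: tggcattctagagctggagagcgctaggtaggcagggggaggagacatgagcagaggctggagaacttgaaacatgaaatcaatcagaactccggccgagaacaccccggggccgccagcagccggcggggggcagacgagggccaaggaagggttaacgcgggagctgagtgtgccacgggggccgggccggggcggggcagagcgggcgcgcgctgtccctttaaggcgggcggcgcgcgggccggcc
Tcf7l2: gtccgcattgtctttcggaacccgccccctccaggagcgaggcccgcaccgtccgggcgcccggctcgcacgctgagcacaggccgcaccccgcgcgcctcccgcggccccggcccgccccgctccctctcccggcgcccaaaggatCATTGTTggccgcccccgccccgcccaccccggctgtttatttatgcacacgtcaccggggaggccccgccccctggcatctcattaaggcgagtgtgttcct
Sp5: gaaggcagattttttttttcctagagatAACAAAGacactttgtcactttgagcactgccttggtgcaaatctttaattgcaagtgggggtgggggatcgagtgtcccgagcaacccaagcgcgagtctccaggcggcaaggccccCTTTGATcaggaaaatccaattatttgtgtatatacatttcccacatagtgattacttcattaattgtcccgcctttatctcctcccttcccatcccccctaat
The starts used lie 501, 161, 210 and 2699 bp downstream of the TU start for Tcf7l1, Axin2, Tcf7l2 and Sp5, so the Tcf7l1 and Sp5 windows lie wholly inside their TUs. Sp5 held CTTTGAT, 104 bases before the annotated start, and farther upstream CTTTGTT on the opposite strand, which reads AACAAAG as printed. Tcf7l2 held CATTGTT, 103 bases before its start. Of the 7 windows, 1 held a TCF/LEF type match and 2 a SOX type match. The Tcf7 and Nkd1 windows also lay inside their TUs, before starts 1360 and 5836 bp downstream, so sequence at the start of the Tcf7l1, Sp5, Tcf7 and Nkd1 TUs was not searched. Across 32851 promoters of the same length the shares were 7.48% and 8.12%. GC content was 73.6% for Tcf7l1, 72.8% for Tcf7l2, 69.2% for Axin2 and 46.0% for Sp5. A match describes letters in this window only.

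Depth ranged from 11131490 to 25854106 fragments per library, over 40779 TUs. The Sox2 TU, which the tag does not remove, was not called at any time point, with log2 fold changes against NT of -0.12 to 0.09 (SE 0.11). SOX2 protein was not measured in these libraries. All 8 markers of embryonic stem cells were detected, with a summed level of 3950 to 4363 counts per 1000000 fragments (CPM) in NT and 3268 to 3532 CPM at 6 hpd, and 6 of the 8 were called down at 6 hpd. Markers of other cell types had lower sums: of 6 genes each, the table held 5 for primitive endoderm (summed 4.29 to 4.91 CPM in NT, 7.02 to 7.63 CPM at 6 hpd), 4 for trophoblast (51.1 to 53.0, then 27.0 to 31.0 CPM), 2 for neural cells (25.6 to 28.0, then 19.7 to 21.5 CPM), 1 for mesoderm (8.95 to 11.8, then 6.18 to 7.80 CPM) and 3 for fibroblasts (9.74 to 12.5, then 27.3 to 42.6 CPM, led by Pdgfrb). Within the lists Eomes was called up at 0.5, 1 and 2 hpd (log2 fold changes 1.52, 1.64 and 1.79) and Gata6 at 2 hpd (1.14). Pdgfrb was called up at 1, 2 and 6 hpd (1.13, 1.37 and 1.71). Krt8 was called down from 1 hpd on and Tfap2c from 2 hpd on. Nes was called down at 1, 2 and 6 hpd (-0.68, -0.87 and -0.97) and Kdr at 6 hpd (-0.56). These sums include 2 genes that did not meet the count condition, Sox17 and Thy1, and the other genes of these lists had no TU in the table. The part of these shifts in the results that follow was not tested. In bulk libraries, fewer cells that transcribe a gene and less transcription per cell cannot be told apart, and without a spike-in all levels are relative to the library.

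Tcf7l1 fell, Axin2 and Tcf7l2 rose, Nkd1 was called up at 1 time point, and Sp5 and Ctnnb1 were not called at any time point or jointly. Calls rest on edgeR's quasi-likelihood test, with a Benjamini-Hochberg adjusted p under 0.05 over all 28459 TUs. At 0.5 hpd none of the 7 genes was called up or down, where 0.527% of all TUs were called up and 0.787% down. Without adjustment 2 of the 7 (Axin2 and Tcf7) passed at 0.5 hpd, both higher, and DESeq2 called 0. At 1 hpd 1 gene was called down, against 3.61% of all TUs, and 0 up, against 2.15%, where 3 were higher without adjustment and DESeq2 again called 0 up. At 2 hpd 2 were called up (4.26% of all TUs) and 1 down (5.57%). At 6 hpd 2 were called up (6.61%) and 1 down (9.2%). A joint test of any change over the 4 time points called 4 of the 7, Tcf7l1, Axin2, Tcf7l2 and Tcf7, and 12.3% of all TUs. All 4 joint calls were lost without NT replicate 1 and again without NT replicate 2, each of which left 0 members called, and 2 joint calls were left without either 1 hpd library or without 6 hpd replicate 2. The median log2 fold change of the 7 genes was 0.03, 0.24, 0.23 and 0.12 at the 4 time points in order, and that of all TUs was -0.02, -0.04, -0.04 and -0.04.

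**Figure D1:**
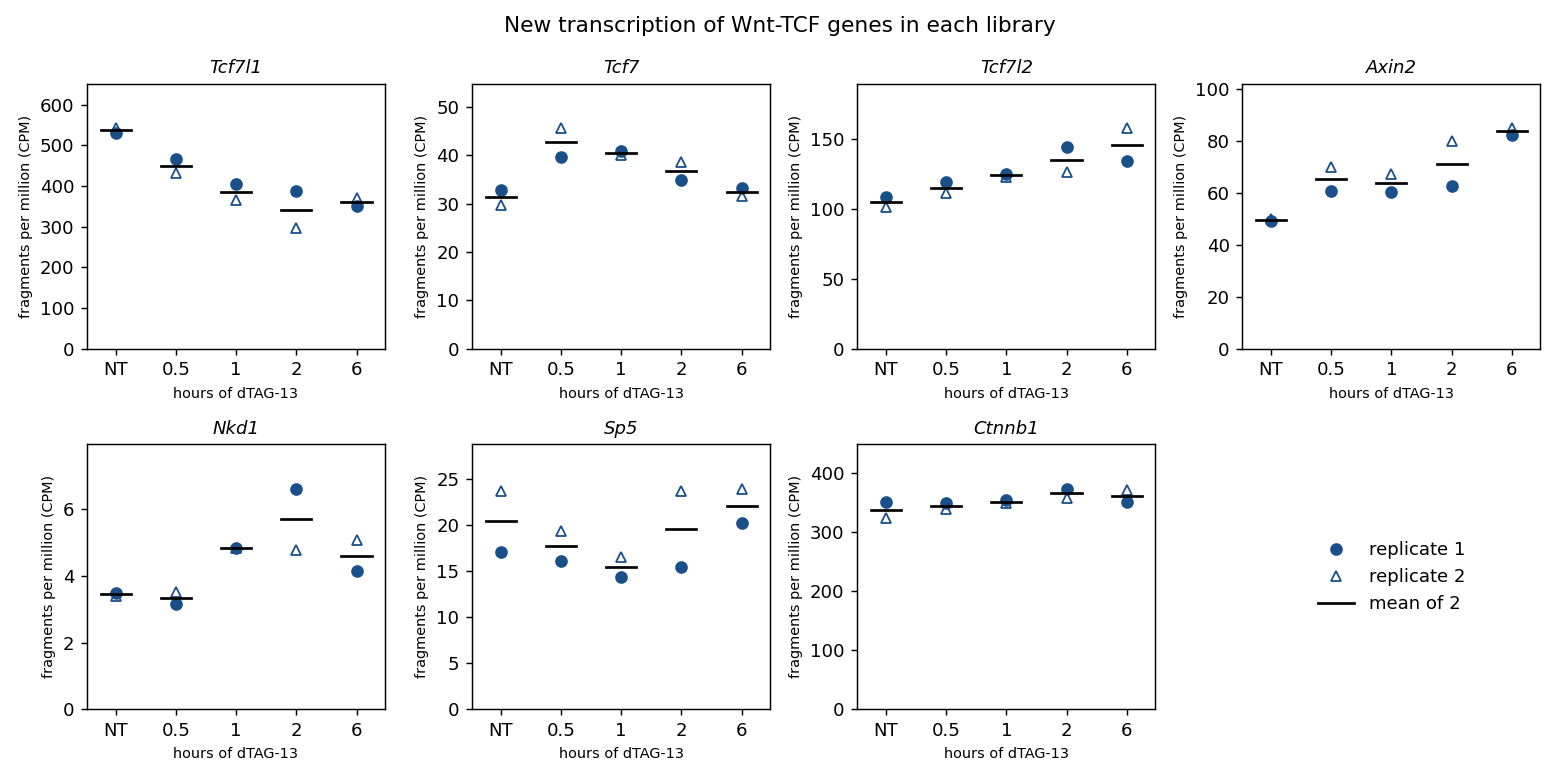
Nascent transcription of the 7 genes in each library, in CPM from an axis that starts at 0 (each panel has its own scale), against hours of dTAG-13, with NT for DMSO. Points are single libraries and bars the means of 2. Tcf7l1 is lower in every depleted library than in both NT libraries, Axin2 and Tcf7l2 are higher in every depleted library, and the Sp5 libraries of most groups overlap those of NT.

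Tcf7l1 encodes the TCF factor best known as a repressor of pluripotency genes, and it was the only one of the 7 called down. Its TU covers 172.5 kb on the minus strand of chromosome 6, from 72617011 to 72789546 (mm10), and begins 501 bp upstream of the annotated start. NT libraries 1 and 2 held 531 and 543 CPM. The 0.5 hpd libraries held 467 and 432 CPM, and those at 1 hpd 406 and 366 CPM. The 2 hpd libraries held 387 and 296 CPM, and those at 6 hpd 351 and 369 CPM. All 8 depleted libraries lay below both NT libraries, and the spread was widest at 2 hpd. The mean went from 537 ± 8.66 CPM in NT (SD, n = 2) to 342 ± 64.5 CPM at 2 hpd.

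On the log2 scale Tcf7l1 differed from NT by -0.26 ± 0.12 (SE) after 0.5 h, which edgeR did not call (adjusted p = 0.551). The difference was -0.48 ± 0.12 after 1 h (adjusted p = 0.0344). It was -0.65 ± 0.12 after 2 h (adjusted p = 0.00331) and -0.58 ± 0.12 after 6 h (adjusted p = 0.00543). The fold at 2 hpd was 0.637, with a 95% interval of 0.530 to 0.766. The call at 2 hpd held without each single library. At 6 hpd, leaving out NT replicate 2 (log2 fold change -0.54) or 6 hpd replicate 1 (-0.53) ended the call. At 1 hpd the call ended when any of 6 libraries was left out: NT replicate 1 (-0.48) or 2 (-0.44), 1 hpd replicate 1 (-0.55) or 2 (-0.40), and 6 hpd replicate 1 (-0.46) or 2 (-0.48). RLE factors ended it too (-0.45).

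Transcription opposite the Tcf7l1 start fell as well. Around the 7 genes, 12 TUs without a gene symbol overlapped a member or lay within 50 kb of it, 4 of them overlapping and 6 on the same strand. At 1 hpd 1 of the 12 was called down, where 3.65% of all TUs without a symbol were, and at 6 hpd 1 of the 12, where 10.8% were. Both calls were the same plus-strand TU, chromosome 6 from 72787585 to 72791746, which spans the start of Tcf7l1 on the other strand. It was sparse, with 19 and 25 fragments in the NT libraries and 25 and 11 after 0.5 h. The 1 hpd pair held 6 and 9 fragments, the 2 hpd pair 9 and 14, and the 6 hpd pair 7 and 6. In CPM the 1, 2 and 6 hpd libraries were all below both NT libraries. It differed from NT by -1.77 ± 0.43 on the log2 scale after 1 h (adjusted p = 0.022) and by -1.87 ± 0.44 after 6 h (adjusted p = 0.00914), while -0.68 after 0.5 h and -1.29 after 2 h were not called. The 1 hpd call was lost with DESeq2 (-1.76) and without NT replicate 2 (-1.48), 1 hpd replicate 1 (-1.58) or 1 hpd replicate 2 (-2.01). The 6 hpd call was lost with DESeq2 (-1.86) and without NT replicate 2 (-1.59) or 6 hpd replicate 2 (-1.63), and a call at 2 hpd appeared with total counts (-1.40) and without 2 hpd replicate 2 (-1.76). Fragments were assigned by strand, per the methods. The next smallest joint p among the 12 belonged to TUs near Tcf7 (joint adjusted p = 0.227) and Tcf7l2 (joint adjusted p = 0.271), neither called.

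**Figure D2:**
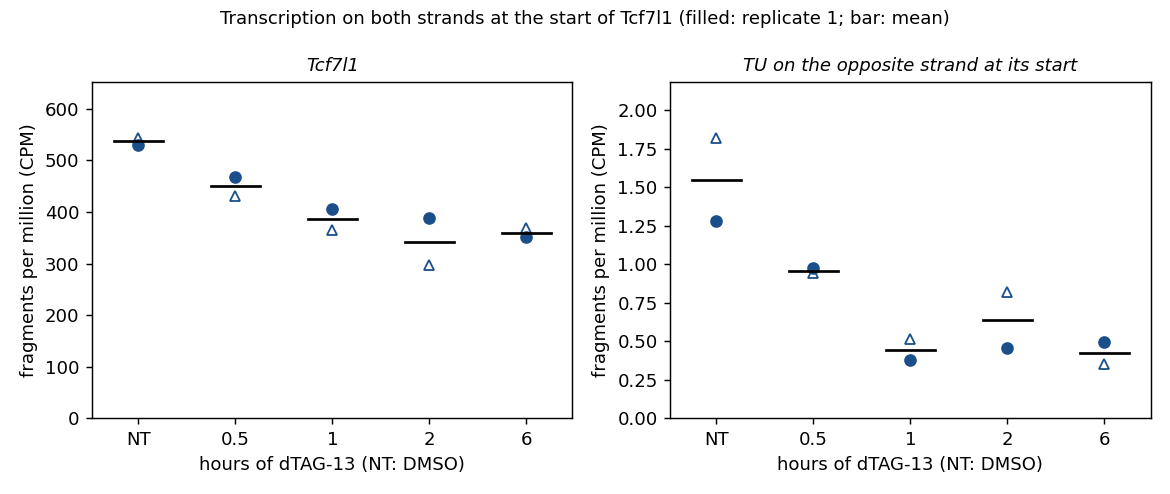
CPM of the Tcf7l1 TU (left) and of the TU on the opposite strand at its start (right) in each library, against hours of dTAG-13, on axes that start at 0. Filled circles are replicate 1, open triangles replicate 2 and bars the means of 2. Both TUs are lower at 1, 2 and 6 hpd than in NT, and the opposite-strand TU averages 13.1 fragments per library against 6934 for Tcf7l1.

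Tcf7l2, a TCF factor that can activate or repress, was called up at 6 hpd. Its TU covers 195.7 kb on the plus strand of chromosome 19, from 55741600 to 55937318. NT libraries held 108.5 and 101.6 CPM, the 0.5 hpd libraries 119 and 111 CPM, and the 1 hpd libraries 125 and 123 CPM. The 2 hpd libraries held 144 and 126 CPM, and the 6 hpd libraries 134 and 158 CPM. Every depleted library was above both NT libraries, with the highest value in 6 hpd replicate 2. The log2 fold changes were 0.13, 0.24 and 0.36 at 0.5, 1 and 2 hpd (adjusted p = 0.82, 0.28 and 0.0512), and 0.47 ± 0.11 at 6 hpd (adjusted p = 0.00909), a fold of 1.39 with a 95% interval of 1.18 to 1.64. The 6 hpd call was lost without NT replicate 2 (0.45) and without 6 hpd replicate 2 (0.35). The 2 hpd value was called with RLE factors (0.40), with DESeq2 (0.40), with the replicate number as a block (0.36), when TUs averaging under 50 fragments were dropped (0.33), and without 0.5 hpd replicate 2 (0.36), 2 hpd replicate 2 (0.45) or 6 hpd replicate 1 (0.36). The joint call was also lost without 0.5 hpd replicate 1, either 1 hpd library or 6 hpd replicate 2, and when TUs averaging under 50 fragments were dropped.

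Tcf7, the TCF factor known as an activator in Wnt responses, had its highest mean at 0.5 hpd. Its 0.5 hpd libraries lay on both sides of the 1 hpd pair, and that step was not called. Its TU runs over 44.9 kb on the minus strand of chromosome 11, from 52239503 to 52284374. NT libraries held 32.9 and 29.6 CPM, the 0.5 hpd libraries 39.7 and 45.7 CPM, and the 1 hpd libraries 41.0 and 40.1 CPM. The 2 hpd libraries held 34.9 and 38.7 CPM, and the 6 hpd libraries 33.2 and 31.6 CPM. The 0.5, 1 and 2 hpd libraries were above both NT libraries, and the 6 hpd libraries overlapped NT. No single time point was called: the log2 fold changes were 0.44 ± 0.11 (adjusted p = 0.0814), 0.37 ± 0.11 (adjusted p = 0.0739), 0.23 ± 0.11 (adjusted p = 0.226) and 0.05 ± 0.12 (adjusted p = 0.804). The joint test called it (adjusted p = 0.0441), and that call was also lost with DESeq2, with total counts, with no count filter, and without 0.5 hpd replicate 2, either 1 hpd library or either 6 hpd library. The 1 hpd value was called in a fit of the compared libraries alone (0.40) and without 2 hpd replicate 2 (0.39). With the replicate number as a block, Tcf7 was called up at 0.5 hpd (0.44) and 1 hpd (0.37).

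Ctnnb1, the gene for beta-catenin, gave no call. Its TU covers 57.5 kb on the plus strand of chromosome 9, from 120933496 to 120990973. NT libraries held 351 and 325 CPM, the 0.5 hpd libraries 350 and 340 CPM, and the 1 hpd libraries 355 and 349 CPM. The 2 hpd libraries held 374 and 358 CPM, and the 6 hpd libraries 352 and 372 CPM. The 2 and 6 hpd libraries lay just above the NT range and the earlier ones overlapped it. At 6 hpd the log2 fold change was 0.10 ± 0.10 (adjusted p = 0.526), and its 95% interval runs from a fold of 0.926 to 1.24. With 5932 fragments per library on average, Ctnnb1 was deeply covered. These are rates of transcription and say nothing of the protein, which GSK3 controls after translation.

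Axin2 had the largest rise of the 7 genes at 6 hpd. AXIN2 holds the destruction complex together, and the gene is a widely used readout of beta-catenin activity. Its TU covers 36.9 kb on the plus strand of chromosome 11, from 108920188 to 108957061. NT libraries held 49.34 and 49.996 CPM, the 0.5 hpd libraries 60.7 and 69.9 CPM, and the 1 hpd libraries 60.3 and 67.5 CPM. The 2 hpd libraries held 62.5 and 80.1 CPM, and the 6 hpd libraries 82.5 and 85.1 CPM. Every depleted library was above both NT libraries, and both 6 hpd libraries were above all others. The mean went from 49.7 ± 0.466 CPM in NT to 83.8 ± 1.84 CPM at 6 hpd (SD, n = 2).

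Axin2 was 0.39 ± 0.13 above NT on the log2 scale after 0.5 h (adjusted p = 0.192) and 0.36 ± 0.13 after 1 h (adjusted p = 0.12), neither called. The difference was 0.52 ± 0.12 after 2 h (adjusted p = 0.015) and 0.76 ± 0.12 after 6 h (adjusted p = 7.5e-04). The fold at 6 hpd was 1.69, with a 95% interval of 1.40 to 2.03, and this call held without each single library and under each alternative tried. At 2 hpd the call ended with total counts (0.41) or when NT replicate 1 (0.51), NT replicate 2 (0.53) or 2 hpd replicate 2 (0.32) was left out. A call at 1 hpd appeared in a fit of the compared libraries alone (0.39), without 2 hpd replicate 1 (0.36) and without 2 hpd replicate 2 (0.38). With the replicate number as a block, Axin2 was called up at 0.5 hpd (0.39) and 1 hpd (0.36).

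Nkd1, the other feedback inhibitor, was thinly transcribed, with 74.2 fragments per library on average over a TU of 75.2 kb on the plus strand of chromosome 8 (88521797 to 88597043). NT libraries held 52 and 47 fragments (3.50 and 3.42 CPM), and those at 0.5 hpd 81 and 41 fragments (3.16 and 3.51 CPM). The 1 hpd libraries held 4.83 and 4.84 CPM, the 2 hpd libraries 6.62 and 4.79 CPM, and the 6 hpd libraries 4.14 and 5.07 CPM. The 0.5 hpd libraries overlapped NT and the later ones were all above it. The log2 fold change of 0.73 ± 0.22 at 2 hpd was called (adjusted p = 0.0484), and neither 0.48 ± 0.22 after 1 h (adjusted p = 0.273) nor 0.42 ± 0.23 after 6 h (adjusted p = 0.23) was. The 2 hpd call was lost with DESeq2 (0.76), with total counts (0.60), in a fit of the compared libraries alone (0.73), and without any single library other than 2 hpd replicate 2. The value was 0.47 without 2 hpd replicate 1 and 0.71 to 0.74 without each of the others that lost the call. The joint adjusted p of Nkd1 was 0.0754, and the joint test called it without 2 hpd replicate 2.

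Sp5, a direct target of beta-catenin in many tissues, was not called at any time point or in the joint test. Its TU spans 15.4 kb on the plus strand of chromosome 2, from 70472224 to 70487600. The RefSeq gene covers 2.80 kb, so most of the counted stretch lies outside the gene. NT libraries held 17.1 and 23.8 CPM, the 0.5 hpd libraries 16.1 and 19.4 CPM, and the 1 hpd libraries 14.4 and 16.5 CPM. The 2 hpd libraries held 15.4 and 23.7 CPM, and the 6 hpd libraries 20.3 and 24.0 CPM. The 1 hpd libraries were below both NT libraries, and the other groups overlapped NT. After 1 h it differed from NT by -0.40 ± 0.20 on the log2 scale (adjusted p = 0.317), with a 95% interval of the fold from 0.563 to 1.02. Without NT replicate 1 this value was -0.60 and without NT replicate 2 it was -0.13, neither called. After 6 h the difference was 0.12 ± 0.20 (adjusted p = 0.718), with an interval from 0.812 to 1.46. With the replicate number as a block, Sp5 was called down at 1 hpd (-0.39) and in the joint test.

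**Figure D3:**
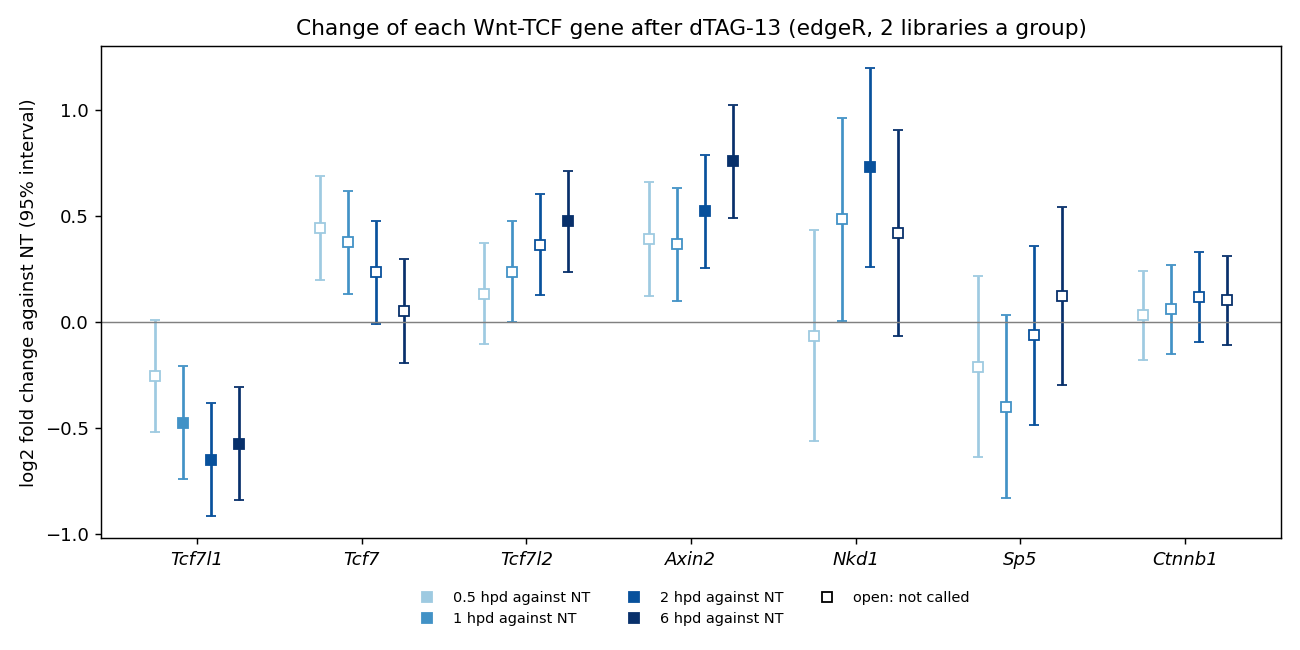
Log2 fold change against NT (edgeR) of each gene at 0.5, 1, 2 and 6 hpd, from left to right in each group, with 95% intervals. Filled squares passed an adjusted p of 0.05 and open ones did not. Tcf7l1 lies below 0 at all 4 time points, Axin2 and Tcf7l2 above, and the Tcf7 values go down from 0.44 to 0.05.

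Between successive time points none of the 7 genes was called, so no interval of the course was singled out by a test. Counts were summed over whole TUs, from 15.4 kb for Sp5 to 195.7 kb for Tcf7l2. Change near a start was not measured apart, and times of response were not compared between genes. From 0.5 to 1 hpd 0.0105% of all TUs were called up and 0.0984% down, from 1 to 2 hpd 0.0211% and 0.197%, and from 2 to 6 hpd 0.26% and 0.517%. DESeq2 also called 0 members between successive time points, and without adjustment 1 passed, Nkd1 from 0.5 to 1 hpd (0.55 ± 0.22). From 2 to 6 hpd Axin2 differed by 0.23 ± 0.12 on the log2 scale, with 95% limits of -0.03 and 0.50, and Tcf7l1 by 0.07 ± 0.12, with limits of -0.19 and 0.34.

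Per kb of TU, beta-catenin was the most transcribed of the 7 genes in NT and Nkd1 the least. Ctnnb1 stood at 5.88 ± 0.32 CPM per kb (SD, n = 2), above 95.8% of TUs with a symbol. Tcf7l1 followed with 3.11 ± 0.050 CPM per kb, which was higher per kb than both other TCF genes, Tcf7 at 0.697 ± 0.051 and Tcf7l2 at 0.537 ± 0.025 CPM per kb. Axin2 at 1.35 ± 0.013 and Sp5 at 1.33 ± 0.31 CPM per kb did not differ beyond their spread. These are values per kb of TU, and TUs ran past their genes to unlike extents. The TU and the RefSeq gene cover 15.4 and 2.80 kb for Sp5, 57.5 and 27.1 kb for Ctnnb1, and 36.9 and 33.0 kb for Axin2. Nkd1 stood at 0.0460 ± 0.00079 CPM per kb, above 3.11% of TUs with a symbol. All neighbours in this order other than Axin2 and Sp5 had NT libraries that did not overlap. At 6 hpd Tcf7l1 was down to 2.09 ± 0.076 CPM per kb and Axin2 up to 2.27 ± 0.050 CPM per kb.

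The TUs most like each jointly called member over the 10 libraries were found by Pearson's r of log2 CPM among 11937 TUs with a symbol and a mean of at least 50 fragments. For Axin2 they were Pik3cd and Id2 (r = 0.98 for both), and for Tcf7 Csk and Rab11fip4 (0.97 for both). For Tcf7l1 they were Fig4 (0.98) and Atf1 (0.97), and for Tcf7l2 LOC108168795 and D5Ertd579e (0.99 for both). The 10 points of each r share libraries and fall into 5 groups, so these values describe likeness of profile only.

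Other genes of the pathway were counted from 6 lists, on which the genes outside the naming rule (Wnt11, Wnt16, Fzd2, Fzd6, Lrp5, Sfrp2, Kremen1, Apc, Gsk3b, Csnk1a1, Amer1, Bcl9, Rnf43, Lgr5 and Cdx1) were named after their values were seen. At 6 hpd, of 10 tested genes for Wnt ligands and their secretion, 4 were called up and 2 down, with a median log2 fold change of 0.04. Among 14 receptors 5 were called up and 1 down (median 0.25), where DESeq2 called 3 up and 1 down. Among 8 antagonists, all secreted other than the membrane proteins Kremen1 and Apcdd1, 3 were called up and 3 down (median 0.08). The agonists on that list, the R-spondin genes, had no TU and were not tested. Among 18 cytoplasmic transducers 1 was called up and 0 down (median 0.20), where 6 were higher and 0 lower without adjustment and DESeq2 called 2 up and 0 down. Among 15 nuclear partners of beta-catenin and TCF 2 were called up and 0 down (median 0.12), where 2 were lower without adjustment and DESeq2 called 0 down. Among 12 other direct targets of beta-catenin 3 were called up and 3 down (median 0.09).

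Ligands changed in both directions. Wnt7b rose from 4.58 and 4.94 CPM in NT to 9.09 and 9.49 CPM at 0.5 hpd and 13.6 and 11.4 CPM at 6 hpd (log2 fold change 1.39 ± 0.16, adjusted p = 2.88e-05). Wls, which carries Wnt proteins to the cell surface, held 11.8 CPM in both NT libraries and 32.4 and 31.8 CPM at 6 hpd (1.44 ± 0.16, adjusted p = 1.78e-05). Both genes separated the 6 hpd libraries from NT without overlap. Wnt11 (2.07 ± 0.23, adjusted p = 1.76e-05) and Wnt16 (1.71 ± 0.37, adjusted p = 0.00542) were also called up. Both were low in NT, Wnt11 at 2.83 and 2.98 CPM and Wnt16 at 0.673 and 0.799 CPM. Porcn, the enzyme that attaches the lipid Wnt proteins need, fell from 20.7 and 17.1 CPM to 8.92 and 9.38 CPM at 6 hpd (-1.05 ± 0.19, adjusted p = 0.00145). Wnt3a was called down from a low level, 2.09 and 1.24 CPM in NT against 0.281 and 0.524 CPM (-1.9996 ± 0.43, adjusted p = 0.00549), a call lost without NT replicate 1 (-1.55) and without 6 hpd replicate 1 (-1.65). The other 5 calls of this list at 6 hpd held without each single library.

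Among receptors, Fzd7 rose from 19.99 and 14.46 CPM in NT to 56.3 and 45.2 CPM at 6 hpd (1.55 ± 0.16, adjusted p = 9.41e-06). Fzd5 fell from 107 and 118 CPM to 35.9 and 31.3 CPM (-1.75 ± 0.12, adjusted p = 2.46e-07). Both values were larger in size than the 0.76 of Axin2, a difference between genes that was not tested. Ror2, a receptor of non-canonical Wnt signals, rose by 0.56 ± 0.11 (adjusted p = 0.00199). Fzd8 was called down after 1 h by -1.22 ± 0.25 (adjusted p = 0.00751) and after 2 h by -1.05 ± 0.24 (adjusted p = 0.0116). After 6 h it was at -0.73 ± 0.24 and not called (adjusted p = 0.0523). Without NT replicate 1 the Fzd8 calls at 1 and 2 hpd were lost (-1.10 and -0.96), as was the former without 1 hpd replicate 2 (-1.07) and the latter without 2 hpd replicate 1 (-0.81), and a 6 hpd call appeared without any single 0.5 or 2 hpd library (-0.73 to -0.71), when TUs averaging under 50 fragments were dropped (-0.78) and in a fit of the compared libraries alone (-0.71). Other calls up at 6 hpd were Fzd2 (1.12), lost without NT replicate 1 (1.08), NT replicate 2 (1.19) or 6 hpd replicate 1 (0.95) and with DESeq2 (1.15), Fzd6 (0.49), lost with total counts (0.40), with DESeq2 (0.52), when TUs averaging under 50 fragments were dropped (0.44), and without NT replicate 2 (0.42), 6 hpd replicate 2 (0.27) or either 1 hpd library (0.49), and Lrp5 (0.47), lost without NT replicate 2 (0.41) or 6 hpd replicate 2 (0.35). The calls of Fzd7, Fzd5 and Ror2 at 6 hpd held without each single library.

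The list of antagonists held the largest fall of the 6 lists at 6 hpd. Notum, an enzyme that inactivates Wnt proteins outside the cell, went from 8.35 and 9.81 CPM in NT to 2.11 and 2.99 CPM at 0.5 hpd and 0.843 and 0.874 CPM at 6 hpd (-3.39 ± 0.27, adjusted p = 1e-06). Every depleted library was below NT. Sfrp4, which binds Wnt proteins, fell from 3.10 and 4.14 CPM to 1.26 and 1.05 CPM (-1.65 ± 0.32, adjusted p = 0.00265). Both of these calls held without each single library. Sfrp2 (-1.15) was called down too, a call lost with DESeq2 (-1.13) and without NT replicate 2 (-1.16) or 6 hpd replicate 1 (-0.91). Dkk1, which blocks the LRP co-receptors, was called up at 6 hpd, from 0.808 and 1.24 CPM to 2.46 and 3.26 CPM (1.50 ± 0.35, adjusted p = 0.00944), and the call was lost without NT replicate 1 (1.23) or 6 hpd replicate 2 (1.27). Dkk3 (0.75) was called up as well, and lost the call with total counts (0.66) and without NT replicate 1 (0.76), NT replicate 2 (0.78) or 6 hpd replicate 1 (0.62). Kremen1 (0.44), a membrane receptor of DKK proteins, lost its call with total counts (0.35) and without NT replicate 2 (0.29), 1 hpd replicate 1 (0.44) or either 6 hpd library (0.40 and 0.50).

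**Figure D4:**
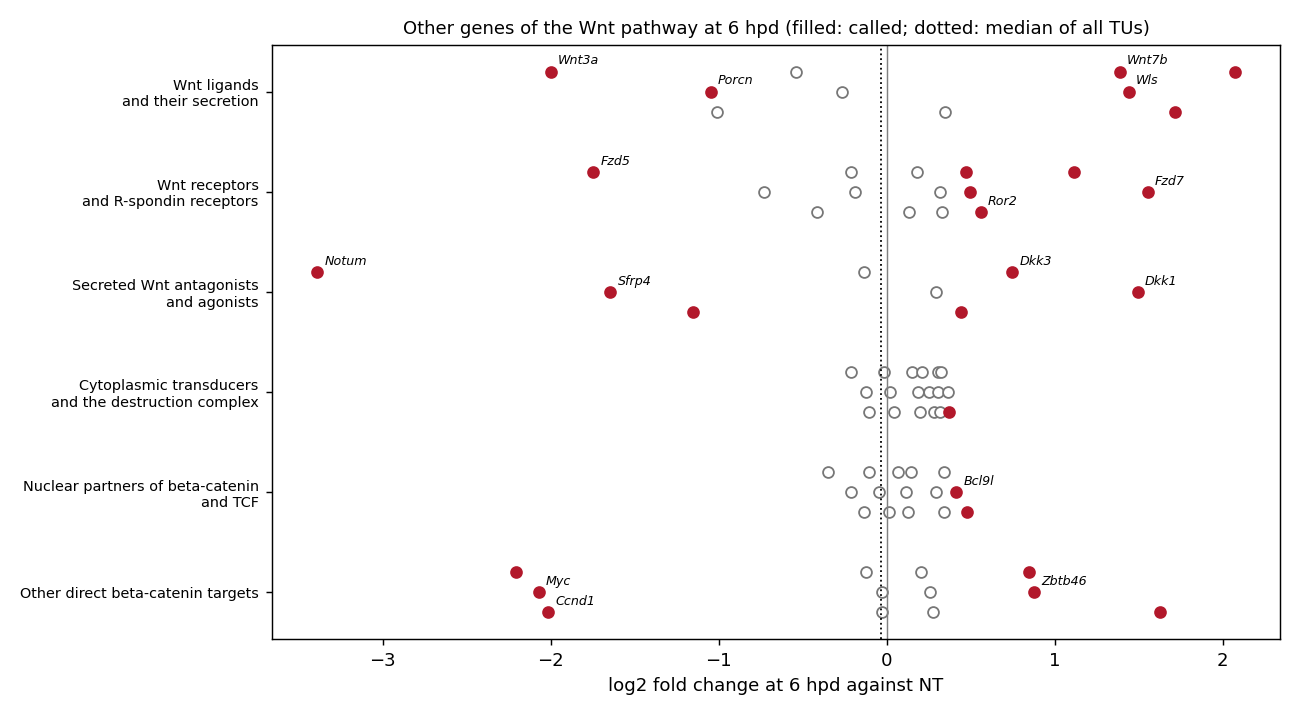
Log2 fold change at 6 hpd against NT (horizontal axis) of each tested gene of the 6 pathway lists (vertical axis, points spread within a list for legibility only). Filled points were called, open ones were not, and the dotted line is the median of all TUs at -0.04. Ligands, receptors, antagonists and agonists, and targets hold called genes on both sides of 0, while the cytoplasmic and nuclear lists span -0.35 to 0.48.

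Of the 18 cytoplasmic genes, 3 were called up at 2 hpd, against 4.26% of all TUs, and 1 down, against 5.57%. Apc (0.41 ± 0.12, adjusted p = 0.0444), a scaffold of the destruction complex, and the kinases Gsk3b (0.41 ± 0.12, adjusted p = 0.0376) and Csnk1a1 (0.45 ± 0.13, adjusted p = 0.0343), which phosphorylate beta-catenin, were up. Amer1, a membrane adaptor that binds APC, was down (-0.39 ± 0.12, adjusted p = 0.0473). Each of these 4 calls ended in a fit of the compared libraries alone and without either NT library, either 1 hpd library or 2 hpd replicate 1, with values of 0.26 to 0.51 for the genes called up and -0.41 to -0.30 for Amer1. The Apc call also ended when TUs averaging under 50 fragments were dropped (0.38), that of Gsk3b without 6 hpd replicate 2 (0.41), and that of Amer1 with RLE factors (-0.36), with DESeq2 (-0.36), with no count filter (-0.38) and without either 0.5 or either 6 hpd library (-0.39). Gsk3b, the kinase that CHIR99021 inhibits together with its relative Gsk3a, was the cytoplasmic gene called up at 6 hpd (0.37 ± 0.12, adjusted p = 0.0406). It lost the call when TUs averaging under 50 fragments were dropped (0.32) and without either NT library (0.36 and 0.42), either 1 hpd library (0.37) or either 6 hpd library (0.42 and 0.34). Bcl9l, a co-activator that binds beta-catenin, was called up after 1 h (0.67 ± 0.12, adjusted p = 0.00388), after 2 h (0.57 ± 0.12, adjusted p = 0.00769) and after 6 h (0.41 ± 0.12, adjusted p = 0.036). Its 1 hpd call held without each single library, its 2 hpd call was lost with total counts (0.46) and without NT replicate 2 (0.55), and its 6 hpd call was lost with total counts (0.32), when TUs averaging under 50 fragments were dropped (0.36), and without either NT library (0.45 and 0.41), either 1 hpd library (0.41) or either 6 hpd library (0.36 and 0.48). Its paralog Bcl9 (0.48 ± 0.12, adjusted p = 0.0128) lost the 6 hpd call without NT replicate 2 (0.42) or 6 hpd replicate 1 (0.37).

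Other direct targets of beta-catenin were called in both directions at 6 hpd. Ccnd1, the gene for cyclin D1, went from 38.1 and 40.4 CPM in NT to 12.6 and 6.99 CPM at 6 hpd (-2.02 ± 0.19, adjusted p = 4.17e-06). Myc was transcribed at 1.95 and 2.11 CPM in NT and at 0.421 and 0.524 CPM at 6 hpd (-2.07 ± 0.36, adjusted p = 0.00108). Both calls held without each single library. Lgr5, a receptor of R-spondins, was called down (-2.21, lost without NT replicate 2 at -1.71). Rnf43, which removes Frizzled receptors from the surface, was called up (1.62, lost without NT replicate 2 at 1.49 and without 6 hpd replicate 1 at 1.25), as were Cdx1 (0.85, lost without NT replicate 2 at 0.64 and without 6 hpd replicate 1 at 0.44) and Zbtb46 (0.88, lost without NT replicate 2 at 0.64 and without 6 hpd replicate 2 at 0.85). Levels of Lgr5 and Rnf43 were low: Lgr5 went from 1.28 and 2.33 CPM in NT to 0.351 and 0.408 CPM at 6 hpd. Rnf43 went from 0.740 and 0.581 CPM to 2.60 and 1.57 CPM. The percentages of all TUs called at 6 hpd, given above, are the background for these lists too.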

How the data were processed

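The authors deposited raw fragment counts per TU, without normalization, and the mm10 positions of each TU (other columns). Per the methods and the submitters' processing notes, reads were aligned to mm10 with BWA 0.7.17-r1188, filtered with SAMtools 1.10, deduplicated with Picard 2.12.0 and split by strand, TUs were called on pooled data and linked to RefSeq genes, and fragments were counted in each. Starts of TUs are printed as deposited. Groups came from the labels.

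Counts were fitted with edgeR 4.0.16 (R 4.3.3), TMM factors and a coefficient for each group in 1 model of the 10 libraries, with 5 residual degrees of freedom and no covariate. The count condition was more than 10 fragments in 2 or more libraries, and the 28459 TUs that met it were tested by the quasi-likelihood F-test with Benjamini-Hochberg adjustment. The 12320 TUs left out held 0.316% of fragments. Each time point was tested against NT, which all 4 comparisons share, and against its successor, and a joint test covered all 4. CPM use the TMM factors. Intervals of fold changes are 95% intervals from the fit.

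The members and lists were chosen with earlier results of these data known. Named genes were the 7 members, Sox2, per list the 2 jointly called up and the 2 down with the smallest joint p (direction at 6 hpd), the 3 nearby TUs without a symbol with the smallest joint p, and the 2 profiles most like each jointly called member. Alternatives were DESeq2 1.42.0, RLE factors, total counts, all TUs unfiltered, a mean of 50 fragments or more, the compared libraries alone, the replicate number as a block, leaving out each library, and a 100 kb window around members. The procedure was also run on counts simulated from its own fitted means and dispersions, with independent libraries. Such counts cannot show how calls hold where same-numbered libraries are alike. Groups of 2 allow no outlier test. Promoter windows were taken from a table of RefSeq starts (GRCm38.p6) that lists some starts of a gene. All 7 members had a window, before a start 82 to 5836 bp downstream of the TU start and over 1000 bp for 3.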

Additional observations from a re-analysis of the deposited data

Results flagged for a closer look

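Of the members and the other genes named by rule, 3 genes of the pathway lists differed between 2 and 6 hpd in the direct test of those groups, and no member did. Wls rose from 22.4 and 15.8 CPM at 2 hpd to 32.4 and 31.8 CPM at 6 hpd (log2 fold change 0.743 ± 0.15, edgeR, adjusted p = 0.0282). Leaving out 2 hpd replicate 2 (0.55), either 1 hpd library (0.74) or either 6 hpd library (0.74 and 0.76) ended the call. Tle3, a co-repressor that TCF factors recruit, went from 180 and 178 CPM at 2 hpd, above its NT libraries at 147 and 137 CPM, to 130 and 115 CPM at 6 hpd, below them (-0.548 ± 0.10, adjusted p = 0.0172). Against NT, Tle3 was called up at 2 hpd (0.33 ± 0.099, adjusted p = 0.0454) and not called at 6 hpd (-0.21, adjusted p = 0.162). The 2 hpd call ended with total counts (0.22), with no count filter (0.34), in a fit of the compared libraries alone (0.33) and without any single library other than 0.5 hpd replicate 2 and 6 hpd replicate 1 (0.29 to 0.38), and a call down at 6 hpd appeared with total counts (-0.30) and when TUs averaging under 50 fragments were dropped (-0.26). The Tle3 call between 2 and 6 hpd was lost without 2 hpd replicate 2 (-0.52) or either 6 hpd library (-0.63 without the first, -0.46 without the other), and in a fit of the compared libraries alone (-0.53). Tnfrsf19, a listed target of beta-catenin, went from 29.7 and 30.2 CPM at 2 hpd to 40.1 and 51.4 CPM at 6 hpd (0.615 ± 0.12, adjusted p = 0.0312), and neither time point was called against NT (-0.36 at 2 hpd, 0.26 at 6 hpd, the latter moving to 0.44 when the first 6 hpd library was dropped and to 0.065 when the other was). The Tnfrsf19 call was lost in a fit of the compared libraries alone (0.63) and without either 1 hpd library (0.61), either 2 hpd library (0.60 and 0.66) or 6 hpd replicate 2 (0.42).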

How the results depend on the processing

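Each group had 2 libraries, and 1 pair of NT libraries stood behind every comparison with NT. Call counts of members were small and moved between settings. Under total counts the median of all TUs shifted to -0.06, -0.13, -0.16 and -0.13 at 0.5, 1, 2 and 6 hpd, 0 members were called up at 2 hpd, and values near 0 reversed for Tcf7 at 6 hpd (-0.039) and for Ctnnb1 at 0.5 hpd (-0.0010) and 1 hpd (-0.029). With RLE factors 0 members were called down at 1 hpd. In a fit of the compared libraries alone 2 members were called up at 1 hpd and 1 at 2 hpd, and 1751 TUs were called up at 1 hpd against 611. DESeq2 called 2 members up at 2 hpd as edgeR did, but Axin2 and Tcf7l2 instead of Axin2 and Nkd1, and over all TUs 1056 down at 2 hpd (1585 in edgeR) and 1719 down at 6 hpd (2618).

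Leaving out each library in turn gave 0 to 2 members called up and 0 to 1 down at 1 hpd, 0 to 2 up at 2 hpd, 1 to 2 up and 0 to 1 down at 6 hpd, and 0 to 5 in the joint test. Over all TUs the ranges at 0.5, 1, 2 and 6 hpd were 21 to 221, 208 to 963, 387 to 2065 and 764 to 2589 up, and 63 to 286, 423 to 1142, 796 to 1654 and 1226 to 2864 down. The log2 fold change crossed 0 for Tcf7 at 6 hpd (-0.0017 to 0.15), Sp5 at 0.5 hpd (-0.43 to 0.046), 2 hpd (-0.42 to 0.22) and 6 hpd (-0.082 to 0.40), Ctnnb1 at 0.5 hpd (-0.021 to 0.088) and Nkd1 at 0.5 hpd (-0.12 to 0.020).

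Replicate numbers were not stated to mark shared cultures. Deviations of same-numbered libraries correlated at 0.054 to 0.663 over 10 pairs of groups, all positive. Below 0.1 were 2 pairs, both with 6 hpd, while pairs among NT, 0.5, 1 and 2 hpd reached 0.375 to 0.663. The main fit used no block because the labels name no shared batch, and whether the numbers mark pairs was not tested. With the replicate block 2 members were called up at 0.5 hpd and 2 at 1 hpd (Axin2 and Tcf7 at both), 2 down at 1 hpd (Tcf7l1 and Sp5 at -0.39), 3 up at 2 hpd (Tcf7l2 at 0.36 as well), and 6 in the joint test (Sp5 and Nkd1 as well). The TU opposite Tcf7l1 was called at 2 hpd (-1.29) and Fzd8 at 6 hpd (-0.74), and 8 cytoplasmic genes were called up at 2 hpd and 7 at 6 hpd. Over all TUs the replicate block gave 524, 1441, 2713 and 3394 calls up, 596, 1747, 2733 and 4036 down, and 7028 joint calls against 3514. The cause of these shifts was not tested. Nkd1 rests on 74.2 fragments per library on average and the TU opposite Tcf7l1 on 13.1.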
